A study of Mus musculus with 26 samples.

Results

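Lung of mice lacking Fgfr3 and Fgfr4, which are receptors of fibroblast growth factors (double knockout, DKO) was compared with wild-type lung (WT) on the arrays whose titles give an age of 1 day. These are 3 DKO and 3 WT arrays of 26 in the series, chosen by their titles, and all 27022 probe sets above a level filter were compared. The title and the source name of these arrays give 1 day while the characteristics and the description give 8 days, so they are named here by title (the set titled 1 day), and ages are not put in order. The arrays titled 8 day, used further below, carry the reverse conflict, since their characteristics give 1 day. They are also named by title, and which label is right is not known. Each array received RNA pooled from 3 animals, and the titles call the arrays biological replicates, so the errors below are between pools and not between animals. The WT are C57BL6 mice described as age-matched, the animals were untreated as far as the labels say, and the strain background of the mutants and the deleted part of each receptor gene are not stated in the sources used here. A strain difference and the genotype therefore cannot be told apart in any DKO minus WT value below. Compound heterozygous lung (DHet, 3 arrays titled 1 day) is given as levels where it helps to place a DKO value, since it would be compared with the same 3 WT arrays.

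Fibroblast growth factors bind receptor tyrosine kinases on the cell surface together with heparan sulphate proteoglycans or Klotho proteins, and the receptors signal through adaptors such as Frs2 to the MAP kinase cascade. Sprouty, Spred and Dusp proteins are induced by the signal and damp it. In the mouse lung FGF signals drive branching before birth, and Fgfr3 and Fgfr4 together are known for their part in forming alveoli after birth, when thin type 1 cells for gas exchange and surfactant-producing type 2 cells line the new air spaces.

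Values are log2 probe set levels, and a difference is DKO minus WT in log2. Array medians in the set titled 1 day lay between 6.68 and 6.74, and arrays correlated with r of at least 0.964 across probe sets. The 3 WT arrays lay closer together than the 3 DKO arrays. The root mean square distance of an array to the others of its group was 0.150 to 0.177 for WT, and for DKO 0.261, 0.296 and 0.237 in replicates 1, 2 and 3. Immediate early genes averaged 0.71 above the WT mean in DKO replicate 2 and -0.10 and -0.05 in DKO replicates 1 and 3, and genes of hypoxia and glycolysis averaged 0.50, -0.18 and 0.08 in replicates 2, 1 and 3. Glucocorticoid responsive genes stood at -0.72 in DKO replicate 1 against 0.09 and 0.08 in the other two. Neutrophil genes stood at 0.43 in WT replicate 1 against -0.18 and -0.25 in the other WT arrays. A measure of RNA integrity, the 3′ minus 5′ signal of the Actb control probe sets, was 0.208 ± 0.0431 (SD, n = 3) in WT and 0.245 ± 0.0359 (SD, n = 3) in DKO.

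In the fit over all 26 arrays, 219 probe sets differed between DKO and WT (0.81% of those tested, limma, adjusted p under 0.05), 175 higher in DKO (0.648%) and 44 lower (0.163%). They name 139 genes that rose and 32 that fell, and 26 of the called probe sets name no single gene. Most changes were modest. The median fold among the called was 1.44, 77 exceeded 1.5-fold and 5 exceeded 2-fold. The groups of arrays did not overlap in 217 of the 219, against 16.6% of all probe sets (10.2% with DKO higher and 6.44% with DKO lower). Quantile normalization within the set called 239, of which 68.2% were higher, against 79.9% as reported. The adjusted p values rest on a spread shared by 9 groups. When the spread was taken from the 9 arrays of the set titled 1 day alone, or from the 6 DKO and WT arrays alone, limma called 0 probe sets (smallest adjusted p 0.105 and 0.167), with 2703 and 3106 at an unadjusted p under 0.05, against 3968 (14.7%) in the fit over all arrays. The typical SD of a probe set within a group was 0.136 in the set titled 1 day, 0.120 in the set titled 8 day and 0.115 in the 28-day set, and for the 219 called probe sets it was 0.158, 0.108 and 0.0976. Single arrays moved the count too: leaving out DKO replicates 1, 2 and 3 left 37, 1280 and 148 probe sets called, and leaving out WT replicates 1, 2 and 3 left 8, 23 and 450. The share called higher was 54.1% when DKO replicate 1 was left out, and 37.5% and 60.9% for WT replicates 1 and 2. The calls below are therefore those of the fit over all arrays, and those kept without each array in turn are pointed out.

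**Figure D1:**
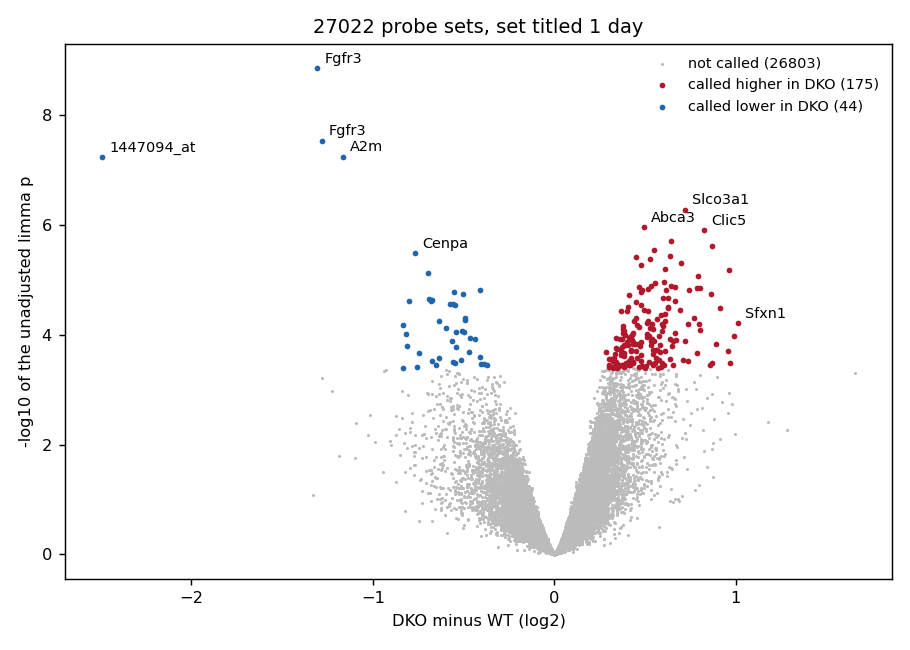
Each point is 1 of 27022 probe sets, with the DKO minus WT difference (log2) on the x axis and -log10 of the unadjusted limma p on the y axis. The 175 called higher (red) and 44 called lower (blue) are coloured, and both Fgfr3 probe sets, A2m and the unnamed probe set 1447094_at stand apart at the upper left.

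**Figure D2:**
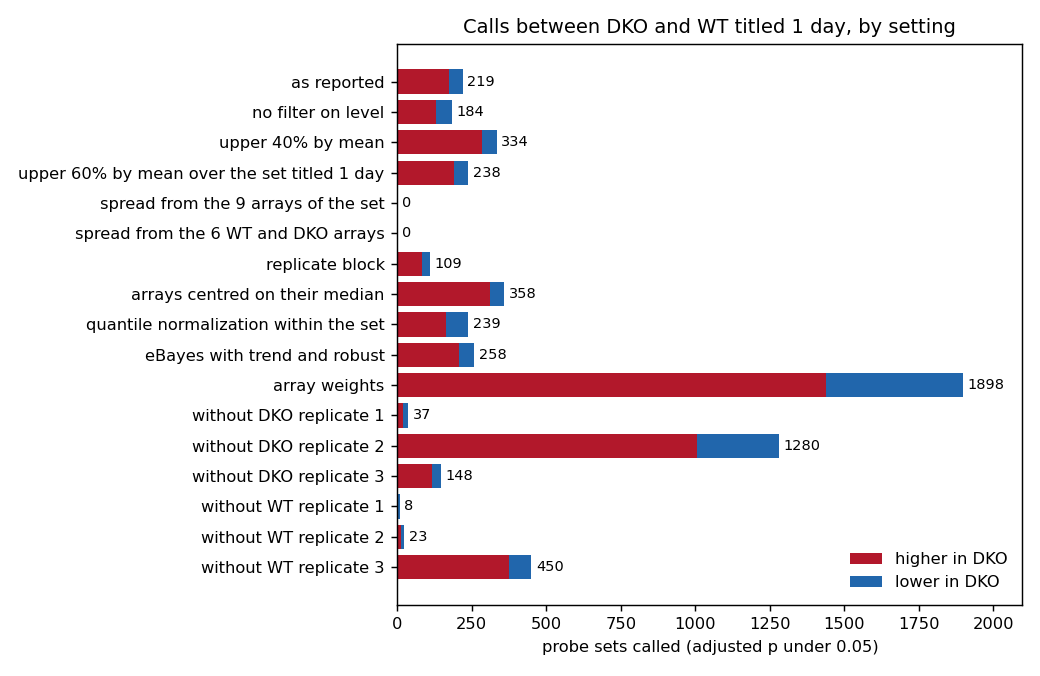
Bars give the number of probe sets called higher (red) and lower (blue) in DKO under each way of processing, with the total at the end of the bar. The number runs from 0 with the spread of the set alone to 1898 with array weights, against 219 as reported.

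The targeted receptors differed in how far they fell. Fgfr3, measured by probe set 1421841_at, was at 10.72, 10.57 and 10.81 in the WT arrays and at 9.67, 8.99 and 9.51 in the DKO arrays. The lowest WT array lay well above the highest DKO array. The level was 2.47-fold lower (difference -1.31 ± 0.131 SE, limma adjusted p = 3.79e-05). A second Fgfr3 probe set, 1425796_a_at, was at 8.57, 8.47 and 8.66 in WT and 7.57, 7.09 and 7.20 in DKO, which is 2.43-fold lower (-1.28 ± 0.153 SE, limma adjusted p = 0.000394). DHet arrays lay between, at 10.36, 10.34 and 9.94 in the first probe set and 7.97, 8.20 and 7.94 in the second. Both stayed called without each of the 6 arrays in turn (highest adjusted p 0.00444), but with the spread of the 6 arrays alone their adjusted p values were 0.270 and 0.167.

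Fgfr4 RNA was not called in any of its probe sets. In probe set 1418596_at it was at 8.86, 8.99 and 8.88 in WT and at 8.86, 8.56 and 8.68 in DKO, a difference of -0.21 ± 0.114 SE (limma adjusted p = 0.405). DHet stood above both, at 9.33, 8.998 and 9.25. The probe sets 1427846_x_at and 1427777_x_at differed by -0.09 and -0.07, and a pair of probe sets below the level filter by -0.06 and 0.08. Where the probes lie in the receptor genes is not given, and one that measures an exon kept in the mutant would not check the knockout.

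Among the other receptors and co-receptors none was called, which leaves Fgfr3 as 1 called of 10 measured members of that list (0.925% of all 13079 measured genes were called by the probe set with the highest mean). Fgfr2, the receptor of Fgf7 and Fgf10 in lung epithelium, was at 10.75, 10.60 and 10.63 in WT and at 10.996, 10.91 and 10.81 in DKO (difference 0.25, limma adjusted p = 0.130). Fgfr1 differed by -0.26 (limma adjusted p = 0.159), with DKO arrays at 8.55, 8.89 and 8.99 and WT arrays at 9.05, 9.12 and 9.04. Fgfrl1, a receptor without a kinase domain, differed by -0.10, and by 0.13 in its other kept probe set 1451912_a_at. The heparan sulphate proteoglycans that assist FGF binding went both ways without a call by their highest probe set: Sdc1 differed by 0.23, Gpc1 by 0.19, Sdc2 by -0.15, Sdc4 by -0.23 and Gpc3 by -0.54 (adjusted p from 0.141 to 0.766). The sign was not stable for Sdc2 and Sdc4. Other kept probe sets differed by 0.15 and 0.10 for Sdc2 and by 0.34 for Sdc4, without a call. Those of Sdc1 differed by between 0.15 and 0.31, also without a call.

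Of 22 FGF ligands 8 were measured above the filter, and 1 was called (0.925% of all genes were). Fgf1, a ligand that binds all FGF receptors, rose from 8.77, 8.76 and 8.97 in WT to 9.61, 9.34 and 9.35 in DKO, with no overlap. That is 1.51-fold (0.60 ± 0.111 SE, limma adjusted p = 0.0144), and the call was lost without DKO replicate 1 (adjusted p = 0.0900), WT replicate 1 (0.113) or WT replicate 2 (0.0745). DHet arrays were at 9.75, 9.26 and 9.55. A second Fgf1 probe set, 1450869_at, differed by 0.45 (adjusted p = 0.0905) and 1441042_at by 0.09 (adjusted p = 0.843). Fgf9 differed by 0.13, Fgf7 by -0.16 and Fgf18 by 0.21. Fgf18, a mesenchymal ligand of alveolar growth, was at 7.22 in DKO replicate 1 and at 6.39 and 6.37 in the other DKO arrays, against 6.45 in each WT array.

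None of the 25 measured transducers and feedback targets was called, and their median difference was 0.09 beside 0.04 for all genes. No induced inhibitor was called: Spry2 differed by 0.19, Spry4 by 0.14, Spred1 by -0.27, Dusp6 by 0.17 and Dusp4 by 0.29. The transcription factors of the pathway, Etv4 and Etv5, differed by -0.13 and 0.10. Egr1, an immediate early gene, differed by 0.80 ± 0.392 SE (limma adjusted p = 0.352), with 10.55 in DKO replicate 2 against 9.29 and 8.68 in the other DKO arrays. Spry4 followed the same array, at 8.999 in DKO replicate 2 against 8.49 and 8.27.

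The 12 largest rises among named genes ran from 0.80 to 1.01. Sfxn1, a mitochondrial serine transporter, was at 6.95, 7.21 and 7.36 in WT and at 7.93, 8.03 and 8.60 in DKO (2.02-fold, 1.01 ± 0.205 SE, limma adjusted p = 0.0228). A second Sfxn1 probe set, 1417560_at, differed by only 0.09 (adjusted p = 0.641). Akap5, which anchors protein kinase A, rose 1.98-fold from 9.02, 9.47 and 9.93 to 10.97, 10.22 and 10.21 (limma adjusted p = 0.0281), and Adcy7, an adenylyl cyclase that makes cyclic AMP, rose 1.95-fold from 6.50, 6.54 and 6.72 to 8.07, 7.09 and 7.50 (limma adjusted p = 0.0479). In both, DKO replicate 1 stood far above the other DKO arrays.

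The others of these 12 were the scaffold gene Ahnak2 (0.96), the semaphorin Sema4f (0.96), the endosomal adaptor Wdfy1 (0.91), the cholecystokinin receptor Cckar (0.89), Misp3 (0.87), the calcium-binding protein gene S100g (0.86), Tia1, an RNA-binding protein of stress granules (0.86), Clic5 (0.82) and the membrane glycoprotein gene Gpm6a (0.80). Their adjusted p values ran from 0.00487 to 0.0479. Other kept probe sets of Tia1 differed by between -0.03 and 0.42 and those of Wdfy1 by between 0.25 and 0.63, none called. Those of Akap5 (0.99 and 0.88) and Adcy7 (0.49 and 0.78) were not called either. Clic5 was also called in 1456873_at (0.59) but not in 1458381_at (0.48) or 1431261_at (0.26). Gpm6a was also called in 1426442_at (0.61). The DHet mean lay past the DKO mean in 100 of the 175 probe sets called higher and between WT and DKO in the other 75. In Misp3, for example, DHet arrays were at 8.20, 7.26 and 7.53, DKO arrays at 7.61, 6.93 and 6.99 and WT arrays at 6.24, 6.18 and 6.51. Array by array, DKO replicate 2 was the DKO array nearest to WT in 94 of the 175 and replicate 1 in 13. WT replicate 3 was the WT array nearest to DKO in 105. All 12 rises stayed called without DKO replicate 2 or WT replicate 3, and 2, 7, 0 and 1 of them without DKO replicates 1 and 3 and WT replicates 1 and 2 in that order (highest adjusted p 0.211, 0.151, 0.269 and 0.173).

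**Figure D3:**
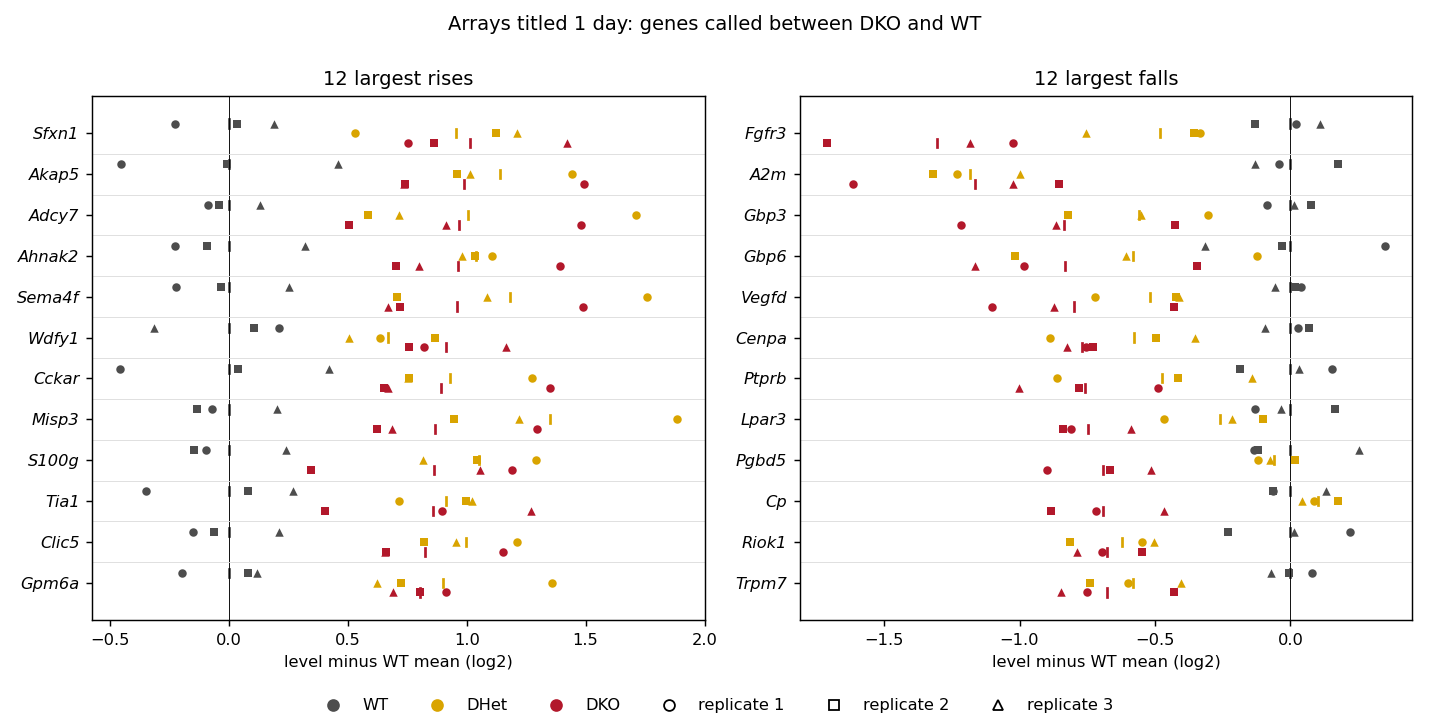
Points give the level of each array minus the WT mean (log2) for the 12 largest rises (left) and falls (right), with WT in grey, DHet in yellow, DKO in red, a symbol per replicate and a short line at each group mean. No DKO array overlaps a WT array, which the choice of these genes required. In Misp3, Sema4f and Akap5 the DHet mean lies past the DKO mean.

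Genes of the alveolar epithelium were among the rises. Of 27 measured markers of type 1 cells, 4 were called higher by their highest probe set and none lower. By that probe set 0.925% of all genes were called. Of these markers, 12 had DKO arrays all above the WT arrays (12.7% of all genes did). A positive difference was seen in 26 of them (62.4% of all genes). Their median difference was 0.26, beside 0.04 for all genes. Clic5, an intracellular chloride channel family gene, was at 9.92, 10.0045 and 10.28 in WT and at 11.22, 10.73 and 10.72 in DKO (1.77-fold, 0.82 ± 0.125 SE, limma adjusted p = 0.00487). Hopx, a homeodomain cofactor of type 1 cells, rose 1.43-fold from 12.27, 12.28 and 12.59 to 13.05, 12.75 and 12.88 (limma adjusted p = 0.0171). Col4a4, a chain of basement membrane collagen IV, rose by 0.77 in 1440250_at, with DKO replicate 2 at 10.38 against 10.96 and 11.23. It was also called in 1425772_at (0.57) and 1445328_at (0.52, limma adjusted p = 0.0365 and 0.0281). Ager, the receptor RAGE that type 1 cells carry in quantity, rose 1.30-fold in 1420428_at (limma adjusted p = 0.0266) and differed by 0.26 in its brighter probe set 1441958_s_at (adjusted p = 0.139). Other markers were not called, among them Aqp5 (0.31), Pdpn (0.37), Cav1 (0.04) and Vegfa (0.39).

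The mean of the type 1 genes differed between the DKO arrays. The 27 markers averaged 0.50, 0.08 and 0.34 above the WT mean in DKO replicates 1, 2 and 3, and 0.53, 0.42 and 0.38 in the DHet arrays. Without DKO replicate 1 the median was 0.20 and without DKO replicate 2 it was 0.35. Of the 5 called markers, 1, 5 and 3 stayed called without DKO replicates 1, 2 and 3, and 0, 1 and 5 without WT replicates 1, 2 and 3 (highest adjusted p 0.203, without WT replicate 1). In whole lung, a change in the number of cells of a type and a change in RNA per cell cannot be told apart.

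Of 22 measured type 2 markers, 3 were called higher and none lower (0.925% of all genes were called), with a median of 0.15 beside 0.04 for all genes. Abca3, which pumps surfactant lipids into lamellar bodies, was at 10.16, 10.23 and 10.14 in WT and 10.68, 10.62 and 10.72 in DKO (1.41-fold, 0.49 ± 0.0738 SE, limma adjusted p = 0.00487). Its DKO arrays lay closest together among the epithelial genes named (SD 0.0511), and it stayed called without each array in turn. S100g rose 1.82-fold, from 9.43, 9.38 and 9.77 to 10.72, 9.87 and 10.58, and the mucin gene Muc1 rose 1.37-fold (limma adjusted p = 0.0132 and 0.0211). Lpcat1, which makes the main surfactant phospholipid, rose 1.46-fold in 1451359_at and differed by 0.16 in its brighter probe set. Of the surfactant protein genes none was called, and Sftpc differed by 0.01, Sftpb by 0.13, Sftpd by 0.26 and Sftpa1 by 0.26. Of the 4 called type 2 probe sets 1, 3, 1 and 1 stayed called without DKO replicates 1 and 3 and WT replicates 1 and 2. Among airway genes, Cckar was the only one of 14 measured club cell markers called (0.925% of all genes were). None of 16 ciliated cell markers was called (median 0.07).

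The falls were fewer and reached further. An unnamed probe set, 1447094_at, was at 9.25, 8.82 and 9.36 in WT and at 7.08, 7.09 and 5.79 in DKO, the largest called change (5.62-fold lower, -2.49 ± 0.310 SE, limma adjusted p = 0.000394). DHet arrays lay between, at 8.04, 7.25 and 8.19. A2m, the broad protease inhibitor alpha-2-macroglobulin, fell 2.24-fold from 7.82, 8.03 and 7.73 to 6.24, 7.01 and 6.83 (-1.16 ± 0.145 SE, limma adjusted p = 0.000394). DHet arrays were as low, at 6.63, 6.54 and 6.86. Both stayed called without each array in turn, as did 5 other probe sets: the Fgfr3 pair, Abca3, Slco3a1 and the unnamed 1419149_at. Slco3a1, an organic anion transporter, rose from 8.46, 8.46 and 8.51 to 9.45, 9.06 and 9.07 (1.64-fold, limma adjusted p = 0.00288). The unnamed 1419149_at rose from 7.26, 7.22 and 7.13 to 7.88, 8.49 and 7.84 while DHet arrays stayed at 7.28, 7.25 and 7.43.

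Vegfd, a growth factor for lymphatic vessels, fell 1.74-fold from 10.26, 10.23 and 10.16 to 9.12, 9.79 and 9.35 (-0.80 ± 0.150 SE, limma adjusted p = 0.0148). Probe sets 1438953_at and 1438954_x_at of the same gene differed by -0.43 and -0.39 without a call. Its receptor Flt4 differed by -0.01, and Vegfd was the only one of 12 measured lymphatic genes called (0.925% of all genes were). Cenpa, the centromeric histone variant, fell from 6.43, 6.47 and 6.31 to 5.65, 5.67 and 5.58 (1.70-fold, limma adjusted p = 0.00788) in 1444416_at, and differed by -0.65 in 1450842_a_at (adjusted p = 0.0842). Cp, the copper-carrying ferroxidase ceruloplasmin, fell 1.61-fold from 8.52, 8.52 and 8.72 to 7.87, 7.70 and 8.12 (limma adjusted p = 0.0146), while DHet arrays stayed at WT level, at 8.68, 8.76 and 8.63. Pgbd5, a transposase-derived gene, fell by 0.69 and the lysophosphatidic acid receptor Lpar3 fell by 0.75, with DHet arrays of Pgbd5 again at WT level.

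For some of the 12 largest falls, other probe sets of the gene were not called, as for Cenpa, Vegfd and Gbp6 by the values given with them. Ptprb, an endothelial phosphatase, fell by 0.76 in 1453908_at and differed by 0.07 and 0.43 in its other kept probe sets. Riok1, a kinase of ribosome maturation, fell by 0.68 in 1440893_at and differed by between -0.16 and 0.02 in 4 others. Trpm7, a channel with a kinase domain, fell by 0.68 in 1431355_s_at and differed by -0.01 and 0.09 in 1416799_at and 1416800_at. Of the 12 falls, 3, 12, 8, 3, 5 and 11 stayed called without DKO replicates 1, 2 and 3 and WT replicates 1, 2 and 3 in that order.

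Some genes of interferon-inducible GTPases, which attack the vacuoles of intracellular pathogens, fell in DKO. Of 9 measured members none had a positive difference, and their median was -0.34 beside 0.04 for all genes. By the highest probe set 2 were called lower (Gbp3 and Irgm1, beside 0.925% of all genes called), and Gbp6 was called in another. Gbp3 was at 7.79, 7.96 and 7.90 in WT and at 6.67, 7.46 and 7.02 in DKO (1.79-fold lower, -0.84 ± 0.170 SE, limma adjusted p = 0.0229). Irgm1 was at 9.07, 9.10 and 8.97 against 8.48, 8.43 and 8.71 (1.42-fold lower, limma adjusted p = 0.0132), and Gbp6 at 6.40, 6.02 and 5.74 against 5.07, 5.71 and 4.89 (1.78-fold lower, limma adjusted p = 0.0498). A brighter Gbp6 probe set, 1447927_at, differed by -0.34 (adjusted p = 0.187). No DKO array reached the WT range in these 3 genes, as in 217 of all 219 called probe sets, so this adds nothing to the calls. In Gbp6 the gap was narrow, with 5.71 in DKO replicate 2 and 5.74 in WT replicate 3. Gbp2 differed by -0.53, Iigp1 by -0.48, Igtp by -0.15, Gbp7 by -0.13, Irgm2 by -0.06 and Mx2 by -0.05, none called.

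Across arrays the GTPase list averaged -0.44, -0.27 and -0.32 in DKO and 0.08, -0.50 and -0.27 in DHet relative to the WT mean, so DHet replicate 1 stood at WT level. Its median stayed between -0.38 and -0.22 when each of the 6 arrays was left out. The calls did not all stay: 0, 3, 1, 0, 0 and 3 of the 3 genes were called without DKO replicates 1, 2 and 3 and WT replicates 1, 2 and 3. None of 26 other interferon response genes was called (median -0.12), and Cxcl10, an interferon-induced chemokine, was at 8.72 in WT replicate 1 against 6.58 and 6.62 in the other WT arrays. Lymphocyte and antigen presentation genes had no call and medians of 0.04 and 0.00.

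The promoters of the pair of GTPase genes called by their highest probe set are shown because both hold the core letters of the interferon-stimulated response element, GAAA, then any 2 bases, then GAAA again, on either strand. The sequences are RefSeq windows of 300 bases (GRCm38.p6, from 250 bases before to 50 after the start of the gene), written on the gene's strand with the matching letters in capitals.
Gbp3, chr3:142559794-142560093, plus strand: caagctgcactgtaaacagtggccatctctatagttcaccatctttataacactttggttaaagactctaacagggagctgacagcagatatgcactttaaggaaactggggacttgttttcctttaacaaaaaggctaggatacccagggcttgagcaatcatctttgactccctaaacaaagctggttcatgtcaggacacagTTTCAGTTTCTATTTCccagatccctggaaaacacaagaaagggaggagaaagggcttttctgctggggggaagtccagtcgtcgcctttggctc
Irgm1, chr11:48871371-48871670, minus strand: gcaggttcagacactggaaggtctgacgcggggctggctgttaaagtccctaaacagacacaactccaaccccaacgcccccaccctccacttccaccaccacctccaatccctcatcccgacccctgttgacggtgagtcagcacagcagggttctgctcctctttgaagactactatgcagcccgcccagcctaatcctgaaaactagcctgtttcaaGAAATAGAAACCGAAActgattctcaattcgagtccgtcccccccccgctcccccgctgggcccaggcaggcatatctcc
In each, 2 matches overlap, beginning 45 and 39 bases before the start of Gbp3 and 30 and 24 before that of Irgm1. All 9 GTPase genes with an entry in the RefSeq table, of 18 on the list, hold the motif, beside 1079 of 27025 genes (3.99%) and 1131 of 32851 windows of that length (3.44%). Of the genes called, 2 of 26 lower ones with an entry (Gbp3 and Irgm1) and 4 of 107 higher ones hold it. A second RefSeq window of Gbp3, at another start, holds no match. A match describes the letters only.

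Cells of the connective tissue gave single calls. Mfap4, a microfibril-associated protein of elastic fibres, fell 1.46-fold from 12.91, 12.94 and 12.64 to 12.10, 12.35 and 12.41 (limma adjusted p = 0.0266). Lum, a collagen-binding proteoglycan, fell 1.51-fold from 7.02, 6.82 and 6.47 to 6.12, 6.27 and 6.13 (limma adjusted p = 0.0248). A2m and Mfap4 were the 2 called of 21 measured fibroblast markers (0.925% of all genes were called). The median of this list was -0.14 beside 0.04 for all genes (-0.20 without DKO replicate 1 and -0.02 without DKO replicate 2). Relative to the WT mean the list averaged -0.06, -0.16 and -0.09 in the DKO arrays and 0.21, 0.09 and 0.20 in the DHet arrays. None of the 28 measured genes on the list of collagens and basement membrane was called by its highest probe set. Col4a4, called above, is counted with the type 1 markers and not on this list. The smooth muscle list averaged 0.60, -0.10 and 0.18 in the DKO arrays, and its only call, Mustn1, overlapped between the groups, with DKO replicate 2 at 7.62 and WT replicate 3 at 7.73. Timp2, a metalloproteinase inhibitor, rose 1.27-fold, with DKO arrays at 11.07, 10.72 and 11.06. Its 4 other kept probe sets differed by between -0.10 and 0.12 without a call, and of the 6 arrays only DKO replicate 2 could be left out without losing the call (highest adjusted p 0.203, without WT replicate 1).

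Vessels, macrophages and the pleura gave few calls as well. Vwf, the clotting factor of endothelial cells, rose 1.37-fold from 9.10, 9.18 and 9.06 to 9.70, 9.51 and 9.49 (limma adjusted p = 0.0229). It was the only call among 26 endothelial genes (0.925% of all genes were called). The median of this list was 0.00, and -0.04 after quantile normalization. Csf1r, the growth factor receptor of macrophages, rose 1.40-fold in 1419872_at from 9.93, 10.15 and 10.14 to 10.81, 10.43 and 10.43 (limma adjusted p = 0.0479). The 21 macrophage genes had a median of 0.27 beside 0.04 for all genes, and 18 had a positive difference (62.4% of all genes did). They averaged 0.31, 0.22 and 0.26 in the DKO arrays, and 0.25, 0.22 and 0.28 in the DHet arrays. Marco differed by 0.82 and Mrc1 by 0.39, neither called. Fabp4, on the same list, differed by -0.25 in 1417023_a_at and by -0.45 in 1451263_a_at without a call. Of 12 mesothelial genes, which mark the lining of the lung surface, 7 had DKO arrays all above WT (12.7% of all genes did) and Gpm6a was called (0.925% of all genes were). This list averaged 0.35, 0.35 and 0.30 in the DKO arrays against -0.09, 0.04 and 0.05 in the WT arrays, and its part in the other differences was not tested.

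Markers of tissues that can come along with lung were not called: heart muscle (14 measured, median -0.08), skeletal muscle (5, 0.01), thymus (4, -0.02), cartilage (5, -0.12), brown fat (6, -0.01) and oesophagus (7, 0.01). Neutrophil genes had no call and differed widely between arrays. Neither did any of 27 cell cycle genes pass (median -0.02, 0.00 after centring each array on its median), and 27 of the 45 lists had no member called by its highest probe set.

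**Figure D4:**
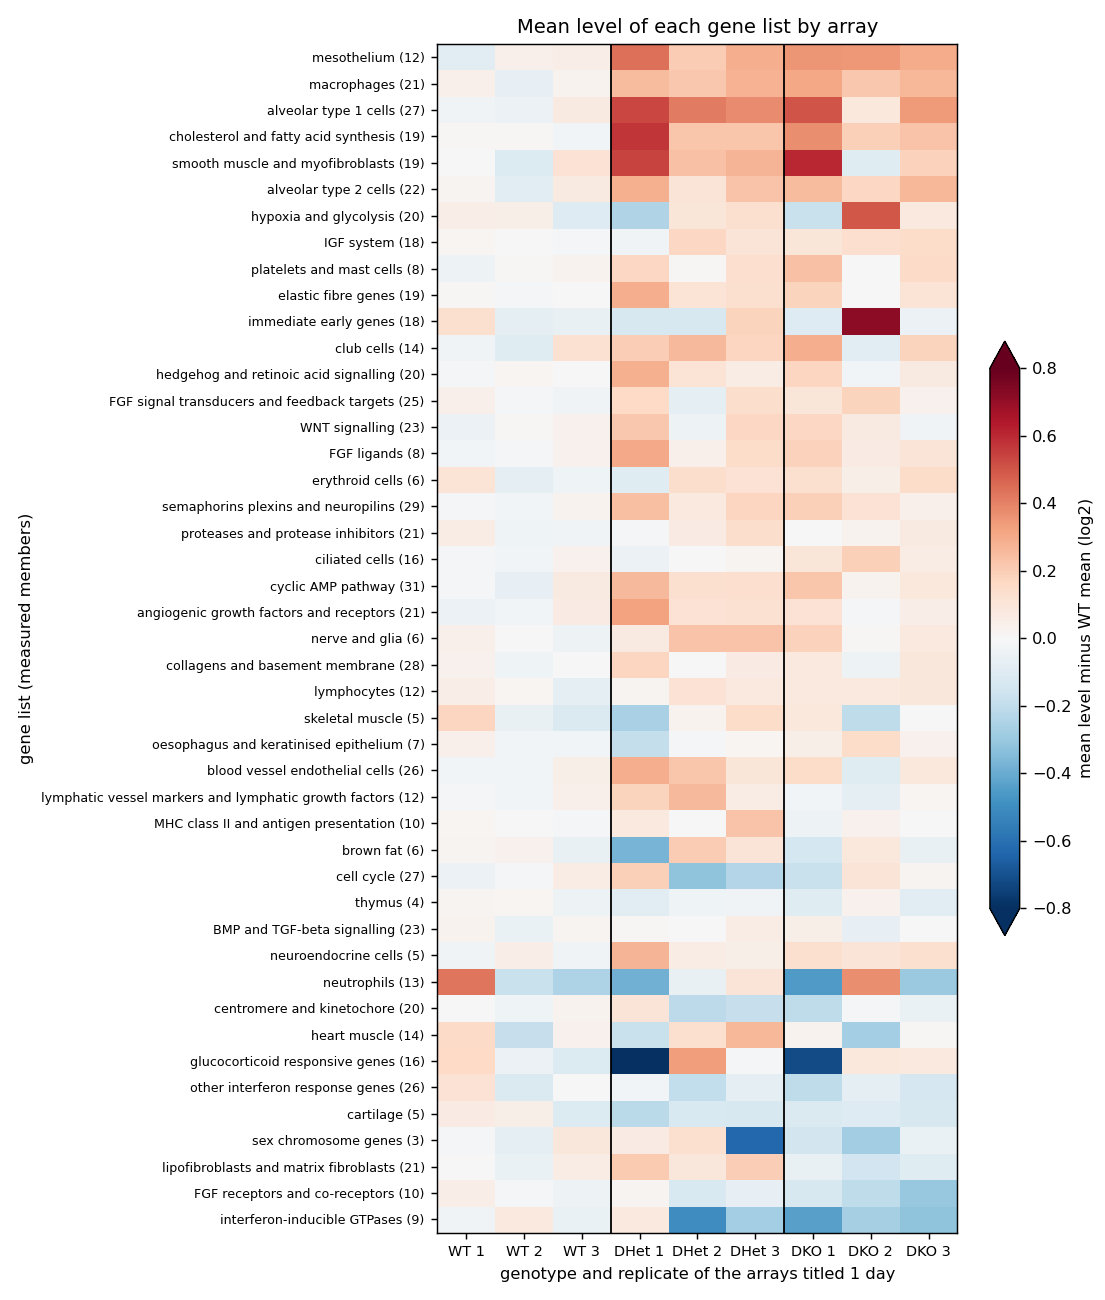
Colour gives the mean level of each of 45 gene lists in each array titled 1 day minus the WT mean (log2, red higher, blue lower), with lists ordered by their median DKO minus WT difference and the number of measured members in brackets. Mesothelium, macrophages and type 1 cells are at the top and interferon-inducible GTPases at the bottom, while immediate early genes stand out in DKO replicate 2 alone.

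Lists of signalling and lipid genes had single calls. Of 29 measured semaphorins and their receptors, guidance molecules for axons and vessels, 3 were called higher and none lower (0.925% of all genes were called), with a median of 0.08 beside 0.04 for all genes. Sema4f, a membrane semaphorin, rose 1.94-fold from 7.18, 7.37 and 7.66 to 8.89, 8.12 and 8.07. Sema3b, a secreted one, rose 1.48-fold from 7.81, 7.92 and 7.77 to 8.57, 8.29 and 8.33, and the receptor Plxnb2 rose 1.29-fold (limma adjusted p = 0.0371, 0.0213 and 0.0169). A second Sema4f probe set differed by 0.34 (adjusted p = 0.221). All 3 stayed called without DKO replicates 2 or 3 or WT replicate 3, and none without DKO replicate 1 or WT replicates 1 or 2.

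Of 31 cyclic AMP pathway genes, Akap5 was called by its highest probe set (0.925% of all genes were called so). Adcy7 and Akap13 were called by another (list median 0.06 beside 0.04 for all genes). Akap13, another anchoring protein of protein kinase A, fell 1.56-fold in 1445311_at (limma adjusted p = 0.0446) and differed by -0.02 in its brightest probe set, while its 4 other kept probe sets differed by between -0.64 and -0.47 without a call. Of 19 cholesterol and fatty acid synthesis genes 2 were called higher by the highest probe set (0.925% of all genes were called so). Their list median was 0.24 beside 0.04 for all genes. Acly was called by another probe set, which that share does not cover. Fdft1, squalene synthase, was at 7.86, 7.93 and 8.02 in WT and at 8.76, 8.44 and 8.48 in DKO (1.54-fold in 1448130_at), the upstream enzyme Fdps rose 1.501-fold and the citrate lyase Acly 1.25-fold (limma adjusted p = 0.0162, 0.0488 and 0.0497). Fdft1 was also called in 1438322_x_at (0.71, limma adjusted p = 0.0456) but differed by 0.03 in 1438918_at and by -0.001 in 1438919_x_at. The list averaged 0.37, 0.19 and 0.23 in the DKO arrays and 0.57, 0.22 and 0.22 in the DHet arrays. None of these 3 lipid genes stayed called without DKO replicate 1, WT replicate 1 or WT replicate 2. Genes of the IGF, BMP and TGF-beta, WNT, and hedgehog and retinoic acid pathways had no call, with medians of 0.12, -0.03, 0.09 and 0.09.

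Genes near the targeted receptors were looked at separately. Within 20 Mb of Fgfr3 on chromosome 5, 6 of 361 probe sets were called (1.66%, against 0.81% of all), and within 20 Mb of Fgfr4 on chromosome 13, 9 of 389 (2.31%). Near Fgfr3 these were Abhd1, Galnt11, Cad, Cckar and Ift172, which rose, and Cenpa, which fell. Abhd1 was at 6.57, 6.69 and 6.69 in WT, 7.18, 6.93 and 7.02 in DHet and 7.44, 7.20 and 7.25 in DKO (1.56-fold, 0.64 ± 0.101 SE, limma adjusted p = 0.00666). Near Fgfr4, Sfxn1, Rab24, Lpcat1, Cap2, Kif13a and Ror2 rose and Riok1, Id4 and Mcur1 fell. Id4, an inhibitor of bHLH transcription factors, was at 8.74, 8.71 and 8.73 in WT and at 8.12, 8.24 and 8.20 in DKO. Of these 15 probe sets 4, 13, 10, 0, 3 and 12 stayed called without DKO replicates 1, 2 and 3 and WT replicates 1, 2 and 3. In the same windows, 21 and 25 probe sets were called in the set titled 8 day (5.82% and 6.43%, against 3.95% of all) and 12 and 15 in the 28-day set (3.32% and 3.86%, against 1.89% of all). Distances come from the RefSeq gene table. The strain background and the genotype cannot be told apart beside the deleted genes, nor for calls elsewhere in the genome.

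The calls were set against DKO minus WT in the other 2 age sets, which share no arrays with the set titled 1 day. The 28-day set has 3 DKO arrays but only 2 WT arrays, so its differences rest on fewer pools. Of the 175 probe sets called higher, 17 were also called higher in the set titled 8 day (9.71% of 175 and 2.74% of the 620 called there) and 11 in the 28-day set (6.29%, and 3.86% of 285). Of the 44 called lower, 8 (18.2%, and 1.79% of 447) and 5 (11.4%, and 2.21% of 226) were. Of all 27022 probe sets, 3.95% were called in either direction in the set titled 8 day and 1.89% in the 28-day set. In each of these sets 1 of the 219 was called in the opposite direction. In all 3 sets and in 1 direction, 7 probe sets were called: the Fgfr3 pair, Abhd1, Cenpa, Clic6 and the probe sets 1423954_at and 1418021_at, which name no single gene. Abhd1 differed by 0.64, 0.95 and 1.15 and Cenpa by -0.77, -0.66 and -0.62 in the sets titled 1 and 8 day and the 28-day set. The unnamed 1447094_at differed by -1.72 in the set titled 8 day (adjusted p = 0.00278) and by -1.25 in the 28-day set (adjusted p = 0.0673).

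The difference between sets was tested itself. DKO minus WT differed between the sets titled 1 and 8 day in 221 probe sets (0.818%), of which 27 were called in the set titled 1 day and 149 in the set titled 8 day. It differed between the set titled 1 day and the 28-day set in 151 (0.559%), of which 15 were called in the set titled 1 day. Leaving out DKO replicates 1 and 2 and WT replicates 1, 2 and 3 in turn gave 60, 887, 36, 58 and 313 for the first count and 96, 360, 55, 73 and 161 for the second. Only Fgf1, Lgi3 and Lum were called in the set titled 1 day and differed from both other sets. Fgf1 was 0.60 in the set titled 1 day, -0.09 in the set titled 8 day and -0.25 in the 28-day set. Lum fell by 0.59 in the set titled 1 day and stood at 0.44 and 0.65 in the other sets.

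Abca3 differed by 0.49 in the set titled 1 day and by 0.04 in the set titled 8 day, a difference between sets of 0.45 (limma adjusted p = 0.0409), and Clic5 by 0.82 and by -0.16 in the 28-day set, a difference of 0.98 (limma adjusted p = 0.0149). A2m stood at -1.36 in the set titled 8 day, a difference of 0.19 that did not pass the test (limma adjusted p = 0.697), and at -0.13 in the 28-day set, a difference of -1.04 that did (limma adjusted p = 0.0287). For Gbp3 and Gbp6 the values were -0.09 and -0.10 in the set titled 8 day and -0.69 and -1.29 in the 28-day set, and their differences from the set titled 1 day did not pass the test. Fgfr4 (1418596_at) differed by -0.21 in the set titled 1 day and by -0.95 in the set titled 8 day, a difference of 0.74 (limma adjusted p = 0.0313).

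**Figure D5:**
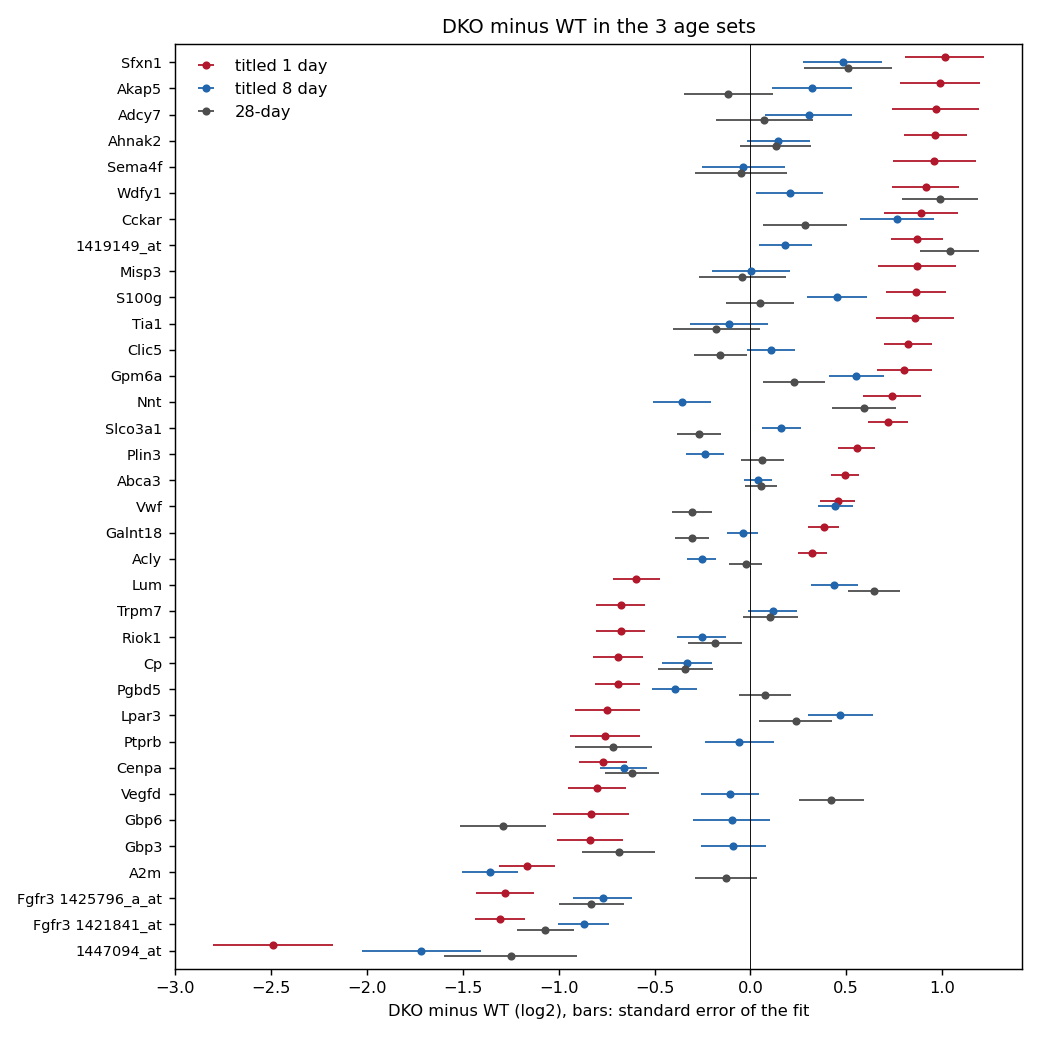
Points give DKO minus WT (log2) with the standard error of the fit in the set titled 1 day (red), the set titled 8 day (blue) and the 28-day set (grey), for the 24 largest changes and further probe sets named for stability or for a difference between sets. Fgfr3, Cenpa and 1447094_at lie to the left in all 3 sets, while Lum lies left in the set titled 1 day and right in the other sets.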

How the data were processed

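RNA of mouse lung was measured on 26 Affymetrix arrays, each with RNA of 3 pooled animals, per the series' design text. The authors deposited log2 probe set levels between 2.68 and 14.8, while their summarisation and normalization are not given in the sources used here. Control probe sets (64 of 45101) were left out, and the 60% with the highest mean across the series were kept (at least 5.38 log2). Gene names come from the platform annotation, updated through Entrez identifiers for 34741 of 34945 probe sets with 1 gene, and 9160 have no name there. All arrays were fitted in R 4.3.3 by lmFit and eBayes of limma 3.58.1 (1 mean for each of 9 groups, 17 residual and 4.89 prior degrees of freedom). P values were adjusted by Benjamini and Hochberg over 27022 probe sets, and a probe set was called under 0.05. The 9 groups share 1 spread per probe set, which can understate the error where 1 set varies more. SE is that of the fit and SD that between arrays. The number of arrays limits the precision.

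A gene stands for its kept probe set with the highest mean in counts and medians of the 45 gene lists, which have 899 members. The members and lists were chosen with earlier results of these data known. Named are the receptors and measured FGF genes, the 12 largest rises and falls without overlap (smallest p per gene), called list members (up to 6, or 2 with the smallest p where none was called), called genes near the receptors, probe sets called without each array in turn, and called probe sets that differ from another set. Not all genes so selected are printed. Alternatives were other level filters, the spread of the set alone, a replicate block, other scalings, array weights and leaving out each array.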

Additional observations from a re-analysis of the deposited data

Results flagged for a closer look

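These values are differences of DKO minus WT between the set titled 1 day and another age set, each past the limma test of the difference (adjusted p under 0.05). Dixon's test of an outlying array was not made, since the groups have 3 arrays. No explanation was weighed.

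Against the set titled 8 day, the genes whose DKO minus WT value was higher in the set titled 1 day were Nnt, a mitochondrial proton-pumping transhydrogenase (difference 1.10), the lipid droplet gene Plin3 (0.79), Fgfr4 (0.74), Sema3b (0.72), Fgf1 (0.69), Acly (0.58) and Abca3 (0.45). Nnt was at 8.14, 8.10 and 8.16 in the WT arrays and 8.70, 9.19 and 8.72 in the DKO arrays titled 1 day, and its difference was -0.36 in the set titled 8 day. Those with a lower value were Fabp4, a fatty acid carrier (-1.87), Lpar3 (-1.21), Lum (-1.03), Trpm7 (-0.79) and Gas1, a hedgehog co-receptor (-0.67). Fabp4 and Gas1 were not called in the set titled 1 day, at -0.45 and -0.29.

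Against the 28-day set, the genes with a higher value were Slco3a1 (0.99), Clic5 (0.98), Fgf1 (0.85), Vwf (0.76) and the glycosyltransferase gene Galnt18 (0.69). Those with a lower value were Fabp4 (-1.42), Lum (-1.24), Vegfd (-1.22) and A2m (-1.04). Vegfd differed by -0.80 in the set titled 1 day and by 0.42 in the 28-day set.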

How the results depend on the processing

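Against 219 probe sets called, the upper 40% by level gave 334, the spread of the 9 or of the 6 arrays 0, a replicate block 109 (95 shared), centring on array medians 358 and array weights 1898. Without filter, with a filter within the set, quantile normalization, and trend and robust eBayes 184, 238, 239 and 258 were called. Leaving out an array gave 8 to 1280. The 221 probe sets whose difference departs from the set titled 8 day became 100 with the replicate block, 1381 with array weights and 36 to 887 without an array, and the 151 against the 28-day set 83, 598 and 55 to 360. The spread of 1 set alone cannot give these 2 differences. The cause of these shifts was not tested.

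Replicate numbers showed no regular pairing of DKO with WT arrays, whose same-numbered deviations correlated with r of -0.13, 0.23 and 0.01. Among WT arrays, DKO replicate 1 correlated best with replicate 3 (0.43). Same-numbered DKO and DHet arrays correlated with r of 0.55, 0.004 and -0.33, the highest in replicate 1. What replicate 1 of DKO and DHet may share was not tested. Of 54 named called probe sets none reversed under any of the 16 alternatives, but most of these could not reverse one. Another filter or spread leaves the difference unchanged, and leaving out an array cannot reverse groups that do not overlap. Of the 54, 44 stayed called with no filter and 34 with the replicate block. Without DKO replicates 1, 2 and 3 the numbers were 14, 53 and 36. Without WT replicates 1, 2 and 3 they were 8, 12 and 51. Of 93 named without a call, 18 were called under some alternative. List medians moved beyond 1 SD of their arrays in 42 of 720 cases.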

Other observations

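Some called genes outside the naming rule were picked after their values were seen. Foxp1, a transcription factor of lung epithelium, fell in both of its called probe sets, by 0.56 and 0.58. Clic3 and Clic6, of the same intracellular chloride channel family as Clic5, rose by 0.79 and 0.47. Ncf1, a subunit of the phagocyte NADPH oxidase, rose by 0.61 in each of its called probe sets, and the cytokine gene Il18 and its receptor Il18r1 rose by 0.61 and 0.64. Ptprf, a receptor phosphatase, rose in 3 probe sets, by 0.45, 0.59 and 0.48.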
